A study of Mus musculus with 8 samples.

Results

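The genes that make, break down and directly read the cyclic nucleotides cAMP and cGMP were followed in mouse dorsal root ganglia with and without intact Tmem184b. They were chosen by gene symbol from the deposited table: the numbered adenylyl cyclases, the guanylyl cyclases, the natriuretic peptide receptors, the phosphodiesterases of families 1 to 11, and the subunits of the cAMP-dependent and cGMP-dependent protein kinases. The rule found 52 of the 40800 genes in the table. No measured value entered it, but the members were chosen with earlier results of these data known. Dorsal root ganglia hold the cell bodies of the sensory neurons of body and limbs, along with satellite glia, Schwann cells and other cells. RNA from whole ganglia was sequenced in 4 wild-type C57BL/6 mice and 4 mutants, homozygous for a Tmem184b gene trap on the C57BL/6 background, each at 6 months of age. A gene trap is an inserted cassette that captures splicing, and this one is carried in every cell of the mutant. The labels number the wild types 1, 3, 4 and 8 and the mutants 1 to 4, and give neither sex nor litter nor batch. Because the tissue was sequenced in bulk, fewer cells of a type and less RNA per cell cannot be told apart in any result below.

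Adenylyl cyclases make cAMP at the membrane under the control of stimulatory and inhibitory G proteins. Guanylyl cyclases make cGMP, the soluble form in response to nitric oxide and the membrane forms in response to peptides. Phosphodiesterases break both nucleotides down, with some families taking only cAMP, some only cGMP and some both. Protein kinase A, a complex of regulatory and catalytic subunits, and protein kinase G read the 2 signals by phosphorylating other proteins. In nociceptors, the sensory neurons that report damage and itch, cAMP is known for raising excitability.

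Values are log2 CPM, the logarithm of reads scaled to library size. Libraries held 6183618 to 7983821 reads, and 1 read equalled 0.125 to 0.162 CPM. Tmem184b itself measured 7.36 to 7.51 log2 CPM in wild-type ganglia and 2.47 to 3.10 in mutant ganglia, or 3.89% of the wild-type CPM, so each library matched its label. Differences are mutant minus wild type with their standard errors (SE) from limma, and a gene was called at an adjusted p under 0.05 (Benjamini-Hochberg over 15030 genes). Pan-neuronal markers summed to 8200 to 9214 CPM in wild-type ganglia and 8387 to 9108 in mutant ganglia, with 0 of 8 called and 2 at an unadjusted p under 0.05. Markers of the central nervous system summed to 216 to 239 CPM in wild-type ganglia and 236 to 262 in mutant ganglia. All 5 tested genes of that list were higher in mutant ganglia, 0 were called and 2 had an unadjusted limma p under 0.05. Opalin was at 0 in all 8 libraries.

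Promoter sequence is shown for 3 members because cAMP-driven transcription acts through a short DNA element, TGACGTCA, whose core is TGACG. Each window is the 250 bases before a start of the gene in RefSeq (build GRCm38.p6), and capitals mark these letters on either strand. Pde4c, at chr8:70723814-70724063 on the plus strand, had the widest difference of any member. Gucy1a2, at chr9:3532099-3532348 on the plus strand, was the only called member whose window held a match. Prkar1a, at chr11:109650699-109650948 on the plus strand, was the only member with the full element and was not called.
Pde4c: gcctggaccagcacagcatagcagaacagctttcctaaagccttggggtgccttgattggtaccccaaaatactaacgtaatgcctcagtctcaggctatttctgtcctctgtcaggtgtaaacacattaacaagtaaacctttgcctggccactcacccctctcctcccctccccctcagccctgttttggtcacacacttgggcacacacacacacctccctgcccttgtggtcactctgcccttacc
Gucy1a2: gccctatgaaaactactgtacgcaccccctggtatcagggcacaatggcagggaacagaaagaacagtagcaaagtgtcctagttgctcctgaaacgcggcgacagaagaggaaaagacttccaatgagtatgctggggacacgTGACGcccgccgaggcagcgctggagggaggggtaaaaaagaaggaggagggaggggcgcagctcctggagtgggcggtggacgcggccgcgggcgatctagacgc
Prkar1a: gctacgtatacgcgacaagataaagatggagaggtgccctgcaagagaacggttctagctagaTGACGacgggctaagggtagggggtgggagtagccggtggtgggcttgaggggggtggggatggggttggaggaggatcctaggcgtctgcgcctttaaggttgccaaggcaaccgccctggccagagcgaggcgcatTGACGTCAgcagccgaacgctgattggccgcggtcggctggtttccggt
The Pde4c window held neither string. In Gucy1a2 the core lay 106 bases before the start. In Prkar1a the full element lay 49 bases before the start, with a further core at 187 bases. Prkar1a had 6 windows in RefSeq, of which only the 1 shown held the full element and 3 held the core. In the window shown, 28 bases lie in annotated exons. Pde4c and Gucy1a2 had 1 window each. RefSeq windows matched 42 of the 52 members, and Prkg2 was among those that did not match. The full element was found in 1 of those 42 genes (2.38%), against 1.77% of all 27025 genes, and in 1.22% of the members' 82 windows against 1.55% of all 32851 windows. The core, which also lies within every full element, was found in 14 of the 42 (33.3%), against 19.8% of all genes, or in 19.5% of the members' windows against 17.8% of all windows. These are matches of letters only.

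Of the 52 members, 44 had enough reads to be tested and 7 were called. Gucy1a2 and Prkg2 rose, and Pde4c, Pde10a, Pde11a, Prkar2a and Prkar2b fell. The 2 called higher stand beside 2.81% of all tested genes called higher, and the 5 called lower beside 2.64% called lower. In either direction that is 15.9% of the tested members against 5.46% of all genes. The 4 mutant values did not overlap the 4 wild-type values in 11 members, 4 higher and 7 lower, or 25% of those tested against 12.4% of all genes. The median signed difference over the tested members was 0.04, against 0.07 over all genes, and 61.4% of members lay above 0 against 64.4% of all genes. By role, 0 of 9 tested genes of cAMP synthesis were called and 1 of 7 of cGMP synthesis and its receptors. Of breakdown genes 3 of 20 were called, counting the chaperone Pde6d, and of kinase subunits 3 of 8. The plot of all tested differences shows these roles side by side.

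**Figure D1:**
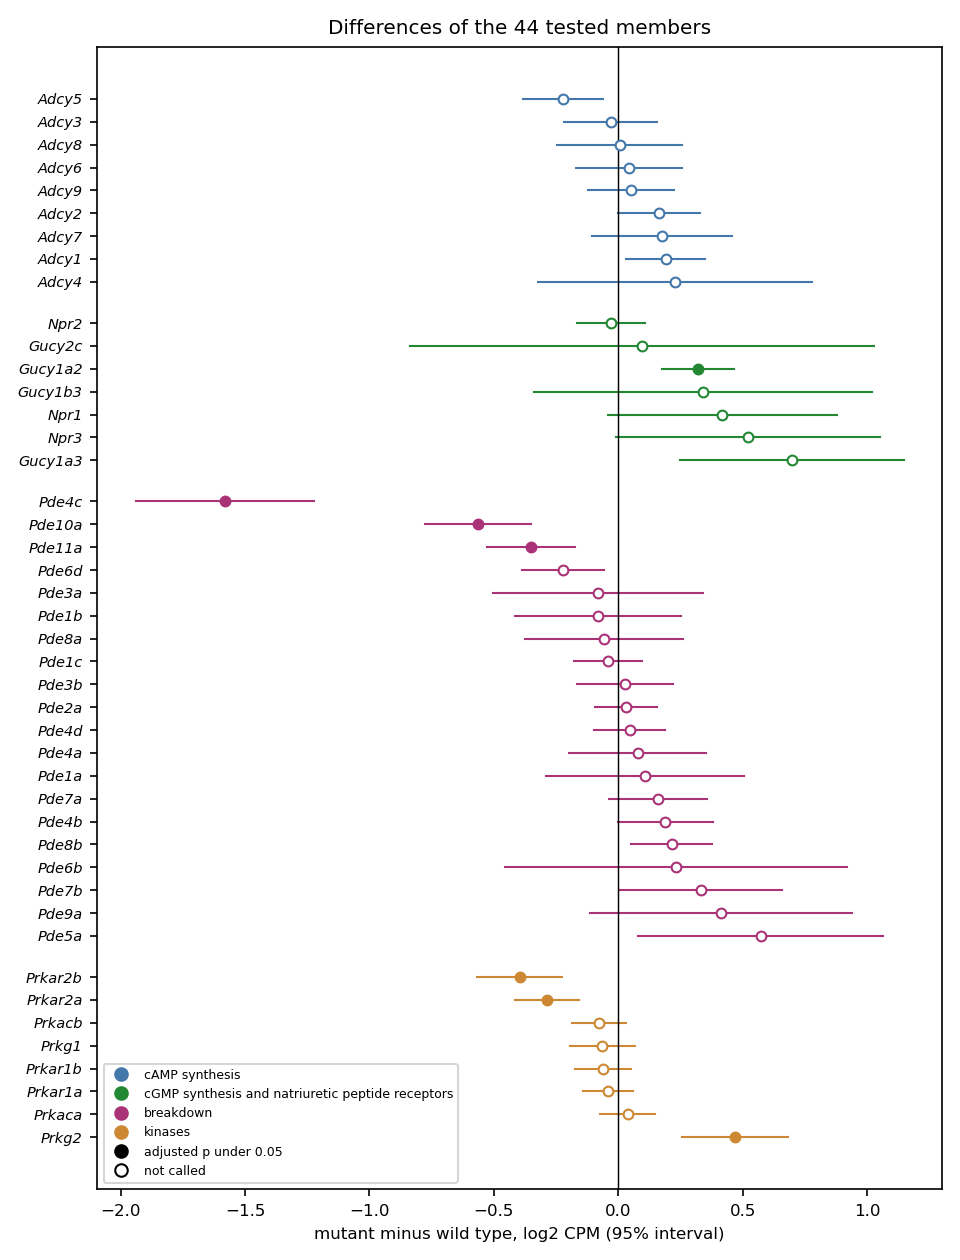
Difference between mutant and wild type (log2 CPM, x axis) for each of the 44 tested members (y axis), coloured by role, with 95% intervals from limma; filled points have an adjusted p under 0.05. Pde4c lies farthest from 0 at -1.58, and the filled points fall in cGMP synthesis, breakdown and kinases.

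The other 8 symbols could not be tested because they stayed near 0: Adcy10, the soluble adenylyl cyclase; Gucy1b2, a soluble guanylyl cyclase subunit; Gucy2d, Gucy2e, Gucy2f and Gucy2g, membrane guanylyl cyclases; and Pde6a and Pde6c, catalytic subunits of the rod and cone phosphodiesterases. No library held more than 6 reads of any of these. Gucy2g had the most, with 3, 1, 4 and 6 reads in wild-type ganglia and 0, 1, 0 and 4 in mutant ganglia, and at such counts no difference was detectable.

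Levels between genes were compared as CPM per kilobase of exon in wild-type ganglia (mean ± SD, n = 4). The protein kinase A subunits stood at the top. Prkar1a, the type I alpha regulatory subunit, was at 232 ± 2.21, and Prkar1b, the type I beta subunit, at 202 ± 10.4. The catalytic subunit gene Prkaca followed at 99.1 ± 4.74. Among phosphodiesterases Pde2a, an enzyme that hydrolyses both nucleotides and is stimulated by cGMP, was highest at 37.7 ± 2.05. It made up 32.4% of the summed level of all phosphodiesterase symbols, a sum in which Pde6d, a chaperone, held 14.2%. By this length, Pde6d at 16.5 ± 0.58 and Pde11a at 15.3 ± 1.25 came next and did not differ beyond their spread. Npr2, the receptor for C-type natriuretic peptide and itself a guanylyl cyclase, was at 34.2 ± 2.27. The leading adenylyl cyclases were Adcy5 at 19.6 ± 2.20, Adcy9 at 16.7 ± 2.03 and Adcy1 at 15.3 ± 1.82. Adcy9 did not differ beyond the spread from Adcy5 or from Adcy1. In wild type 3 Adcy9 held 24.2% of the summed cyclase level, above Adcy5 at 22.9%. Scaled instead by the longest transcript, an alternative chosen after seeing the data, Prkar1b (292) passed Prkar1a (285), and Prkacb went from 42.5 to 85.7. On that scale Pde2a remained the highest phosphodiesterase at 37.7 but made up 22.3% of the sum, Pde6d (27.5) stood clear of Pde11a (19.0), and Pde1c, at 8.74 by merged exons, came up to the level of Pde11a. The order of levels among genes therefore depends on which transcripts are used.

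**Figure D2:**
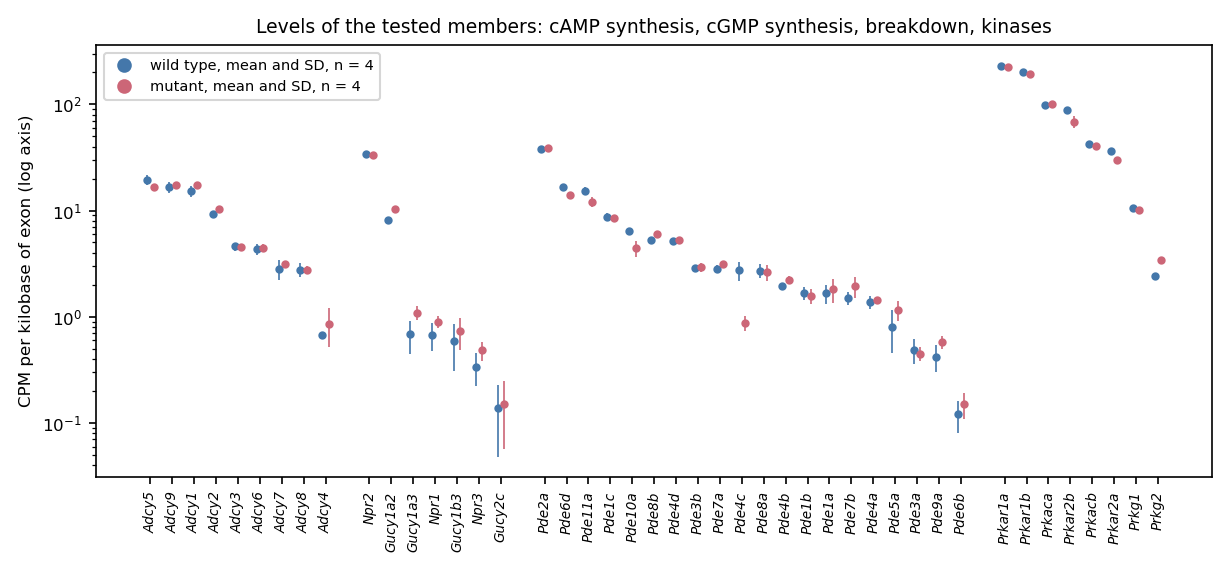
Levels in CPM per kilobase of exon (log axis) of the tested members, ordered by wild-type level within each role from left to right, with mean and SD of 4 wild-type and 4 mutant mice. Levels run from 232 for Prkar1a down to 0.12 for Pde6b in wild-type ganglia, and the widest gap between the groups is at Pde4c.

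No adenylyl cyclase was called by limma or voom. An unadjusted limma p under 0.05 was found for 2 of 9, a level that 3206 of all 15030 genes passed. Adcy5, a calcium-inhibited cyclase, measured 7.20, 7.05, 7.32 and 6.96 log2 CPM in ganglia of wild types 1, 3, 4 and 8, against 6.98, 6.97, 6.85 and 6.84 in ganglia of mutants 1 to 4. Most wild types lay above the mutants, but wild type 8 lay within the mutant range, so the groups overlapped. Its difference was -0.22 (SE 0.075) with a limma adjusted p of 0.102. Adcy1, a cyclase stimulated by calcium and calmodulin, measured 7.66, 7.78, 7.47 and 7.41 in wild-type ganglia and 7.77, 7.69, 7.83 and 7.79 in mutant ganglia. The mutants clustered near the top of the wild-type range, and the groups overlapped. The difference was 0.19 (SE 0.075) with a limma adjusted p of 0.154. Adcy5 stayed uncalled in 19 of 21 alternatives, with limma adjusted p-values up to 0.245, among them quantile normalization at 0.126. It was called when each library was centred on its median (adjusted p 0.0277) and when wild type 8 was left out (0.0488). Adcy2, Adcy4, Adcy7, Adcy9, Adcy6 and Adcy8 had differences from 0.01 to 0.23, and Adcy3 had -0.03. None of these was called, and the interval for Adcy4, the tested cyclase with the fewest reads, ran from -0.32 to 0.78. The summed level of the adenylyl cyclases was 76.1 CPM per kilobase in wild-type ganglia and 77.4 in mutant ganglia, and within that sum Adcy5 made up 25.8% ± 2.39 and 21.6% ± 1.05 (SD, n = 4).

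On the cGMP side Gucy1a2, the alpha-2 subunit of the nitric oxide receptor soluble guanylyl cyclase, rose (ENSMUSG00000041624). It measured 5.77, 5.85, 5.66 and 5.82 log2 CPM in wild-type ganglia and 6.02, 6.05, 6.12 and 6.18 in mutant ganglia. Every mutant lay above every wild type, and the spread within each group was narrow. The difference was 0.32 (SE 0.068, limma adjusted p = 0.0142), from 54.5 ± 3.10 to 68.1 ± 3.40 CPM (SD, n = 4). Median centring took the adjusted p to 0.0893, and a fit without the mean-variance trend took it to 0.0799. Gucy1a2 carried 92.3% of the summed alpha subunit level in wild-type ganglia and 90.3% in mutant ganglia. The other alpha gene, Gucy1a3, measured 2.24, 1.83, 2.89 and 2.16 in wild-type ganglia and 3.06, 2.92, 2.72 and 3.19 in mutant ganglia. Wild type 4 lay inside the mutant range and the other 3 wild types lay below it. Its difference of 0.70 (SE 0.211) was wider than that of Gucy1a2 but had a limma adjusted p of 0.0693. Without wild type 4 the Gucy1a3 difference was 0.90 with an adjusted p of 0.0117. Gucy1a3 was also called at the threshold of 0.1, and stayed uncalled in the other 19 of 21 alternatives, with adjusted p-values up to 0.189. Gucy1b3, the beta subunit that both alpha subunits need, was low at 0.59 CPM per kilobase in wild-type ganglia and had a difference of 0.34 with an interval from -0.34 to 1.02.

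The membrane receptors were not called. Npr2, by far the highest of them, measured 159 ± 10.6 CPM in wild-type ganglia and 156 ± 9.39 in mutant ganglia (SD, n = 4), a difference of -0.03 with an interval of -0.16 to 0.11. Npr1, the receptor for atrial and B-type natriuretic peptides, had 0.42 with an interval from -0.04 to 0.88. Npr3, which clears natriuretic peptides and makes no cGMP, had 0.52 with an interval from -0.01 to 1.05. Both were under 1 CPM per kilobase. Gucy2c, the receptor for guanylin peptides, had 0.10.

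Among the phosphodiesterases Pde4c changed most. Pde4c belongs to the cAMP-specific family 4, the target of rolipram-type inhibitors (ENSMUSG00000031842). It measured 3.91, 3.56, 4.03 and 4.26 log2 CPM in wild-type ganglia and 2.34, 2.53, 2.51 and 2.05 in mutant ganglia. The groups were about 1 log2 unit apart at their nearest values, wild type 3 and mutant 2. The difference was -1.58 (SE 0.168, limma adjusted p = 0.000124), from 15.3 ± 3.02 to 4.88 ± 0.75 CPM (SD, n = 4), or 32.0% of the wild-type CPM. The reads behind these values were 92 to 149 in wild-type ganglia and 27 to 35 in mutant ganglia. Pde4c was called under each of the 21 alternatives tried, with differences from -1.71 to -1.46 and adjusted p-values up to 0.00995. The other members of the family were not called: Pde4a had 0.08, Pde4b 0.19 and Pde4d, the highest of the family, 0.05 with an interval from -0.10 to 0.19. Within the family's summed level the Pde4c share was 23.5%, 19.5%, 24.3% and 29.8% in wild-type ganglia and 8.35%, 9.78%, 9.81% and 7.38% in mutant ganglia. Pde4d made up 46.0% ± 3.15 of it in wild-type ganglia and 53.8% ± 1.29 in mutant ganglia (SD, n = 4). By longest transcript the mean Pde4c share was 16.9% and 5.77%.

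**Figure D3:**
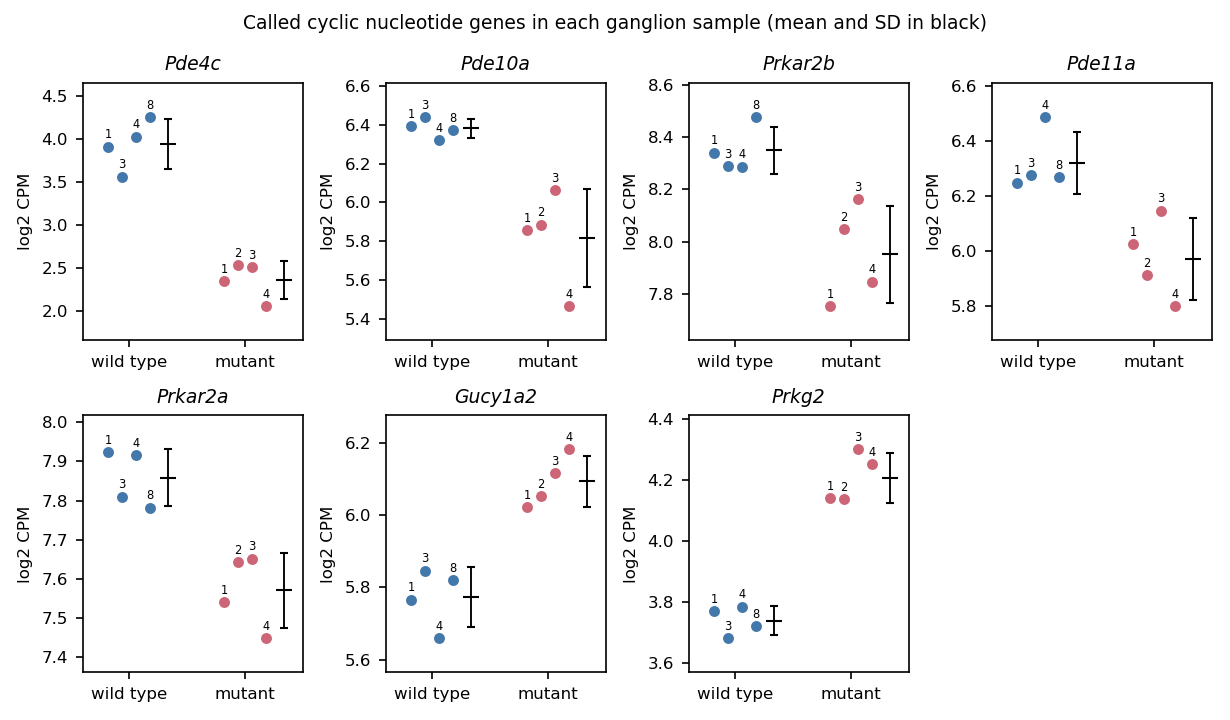
Log2 CPM of the 7 called members in each sample, 4 wild-type (blue) and 4 mutant (red) mice numbered as in the labels, with mean and SD in black; each panel has its own axis range. In all 7 panels the groups do not overlap, with Pde4c farthest apart and Prkar2b, at wild type 3 or 4 and mutant 3, among the closest.

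Pde10a and Pde11a, which each form a family of their own and hydrolyse both nucleotides, also fell. Pde10a (ENSMUSG00000023868), best known from striatal neurons, measured 6.39, 6.44, 6.32 and 6.37 log2 CPM in wild-type ganglia and 5.86, 5.89, 6.06 and 5.47 in mutant ganglia. The wild types were tightly grouped, and mutant 4 lay lowest. The difference was -0.56 (SE 0.0997, limma adjusted p = 0.00512), from 83.1 ± 2.83 to 56.7 ± 9.41 CPM (SD, n = 4). Pde11a (ENSMUSG00000075270) measured 6.25, 6.28, 6.49 and 6.27 in wild-type ganglia and 6.03, 5.91, 6.15 and 5.80 in mutant ganglia. Wild type 4 stood above the other wild types, and the groups did not overlap. The difference was -0.35 (SE 0.082, limma adjusted p = 0.0229), from 79.8 ± 6.49 to 62.6 ± 6.53 CPM. The Pde11a call was lost in 6 of 21 alternatives, with adjusted p-values of 0.0514 without wild type 4, 0.0641 without mutant 2 and 0.0602 without mutant 4.

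Of the other 17 tested phosphodiesterases, 4 had an unadjusted p under 0.05, which 3206 of all 15030 genes passed, and were not called. Pde6d, which despite its name is a chaperone for lipid-modified proteins rather than an enzyme, measured 5.20, 5.10, 5.21 and 5.21 log2 CPM in wild-type ganglia and 4.85, 5.07, 4.97 and 4.94 in mutant ganglia. Wild type 3 stood below its group, and the groups did not overlap. The difference was -0.22 (SE 0.078) with a limma adjusted p of 0.113, which was 0.0293 under median centring and 0.0471 after quantile normalization. Pde8b, a cAMP-specific enzyme, measured 5.01, 5.01, 4.92 and 4.87 in wild-type ganglia and 5.16, 5.19, 5.08 and 5.23 in mutant ganglia. The mutants all lay above the wild types by a small margin, with a difference of 0.21 (SE 0.076, limma adjusted p = 0.118).

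Pde5a, the cGMP-specific target of sildenafil, measured 2.66, 2.63, 3.75 and 2.80 in wild-type ganglia and 3.47, 3.67, 3.13 and 3.87 in mutant ganglia. Wild type 4 lay among the mutants and the other wild types lay below them. The difference was 0.57 (SE 0.231, limma adjusted p = 0.165), and without wild type 4 it was 0.84 with an adjusted p of 0.0128. Pde5a stayed uncalled in the other 20 of 21 alternatives, with adjusted p-values up to 0.399. Fibroblast markers were also highest in wild type 4 among the wild types, at 1222 CPM against 611 to 791 in the other 3 and 794 to 1177 in mutant ganglia. Endothelial markers summed to 123 CPM there, against 88.7 to 99.1 in the other 3 wild types and 93.2 to 132 in mutant ganglia. Schwann cell, macrophage, red blood cell and central nervous system markers were also highest in wild type 4 among the wild types. Pericyte and vascular smooth muscle markers were instead highest in wild type 8, at 389 CPM against 349 in wild type 4. They summed to 312 to 323 CPM in wild types 1 and 3 and 323 to 405 in mutant ganglia. The part of these cells in the Pde5a and Gucy1a3 values was not tested. Pde7b, another cAMP-specific enzyme, measured 4.43, 4.03, 4.39 and 4.11 in wild-type ganglia and 4.86, 4.46, 4.14 and 4.83 in mutant ganglia. Mutant 3 lay among the wild types, and the limma adjusted p was 0.221 for a difference of 0.33.

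The remaining tested phosphodiesterases differed little or were measured with wide intervals. Pde2a, the highest of them, measured 156 ± 8.50 CPM in wild-type ganglia and 159 ± 7.51 in mutant ganglia (SD, n = 4), and its interval ran from -0.09 to 0.16. Pde1c, a calcium and calmodulin-stimulated enzyme, had -0.04 and Pde3b, a cGMP-inhibited enzyme, 0.03. Pde1a, Pde1b, Pde3a, Pde7a and Pde8a had differences from -0.08 to 0.16, and the low-read Pde6b and Pde9a had 0.23 and 0.41. By substrate, 1 of 8 tested genes that hydrolyse only cAMP was called, 0 of 3 that hydrolyse only cGMP, and 2 of 8 that hydrolyse both. These counts hold too few genes to order the substrates.

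Of the protein kinase A genes, those of both type II regulatory subunits fell and the other 4 were not called. Type II subunits are the ones that bind anchoring proteins most tightly, and RII-beta is typical of neurons. Prkar2b, which encodes RII-beta (ENSMUSG00000002997), fell. It measured 8.34, 8.29, 8.29 and 8.48 log2 CPM in wild-type ganglia and 7.75, 8.05, 8.16 and 7.85 in mutant ganglia. Mutants 1 and 4 lay lowest, and mutant 3 came closest to the wild types. The difference was -0.40 (SE 0.080, limma adjusted p = 0.0114), from 326 ± 20.6 to 249 ± 32.1 CPM (SD, n = 4). Prkar2a, which encodes RII-alpha (ENSMUSG00000032601), fell as well. It measured 7.92, 7.81, 7.92 and 7.78 in wild-type ganglia and 7.54, 7.64, 7.65 and 7.45 in mutant ganglia. Both groups were tight, and every mutant lay below every wild type. The difference was -0.29 (SE 0.061, limma adjusted p = 0.0143), from 232 ± 11.7 to 190 ± 12.5 CPM, and without wild type 1 the adjusted p was 0.0555.

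The other 4 subunits had narrow intervals that included 0. Prkar1a had -0.04 with an interval from -0.14 to 0.06, and Prkar1b had -0.06 with one from -0.17 to 0.05. The catalytic subunit Prkaca had 0.04 with an interval from -0.07 to 0.15. Prkacb, the other catalytic subunit, measured 8.52, 8.53, 8.52 and 8.60 log2 CPM in wild-type ganglia and 8.38, 8.49, 8.49 and 8.49 in mutant ganglia. Every mutant lay below every wild type by a small margin, with a difference of -0.08, an interval from -0.18 to 0.03 and a limma adjusted p of 0.408. In summed CPM per kilobase, the type II share of the regulatory subunits was 22.3%, 21.3%, 22.5% and 23.8% in wild-type ganglia and 17.2%, 19.9%, 21.2% and 17.5% in mutant ganglia. The highest mutant came close to the lowest wild type, and the mean share was 22.5% ± 1.03 and 19.0% ± 1.93 (SD, n = 4). Summed regulatory subunits were at 559 ± 9.59 CPM per kilobase in wild-type ganglia and 516 ± 3.85 in mutant ganglia, while the catalytic sum was 142 in both. Regulatory subunits made up 79.8% ± 0.34 of the regulatory and catalytic total in wild-type ganglia and 78.4% ± 0.25 in mutant ganglia. By longest transcript the type II share was 19.9% and 16.8%, and the regulatory share 78.8% and 77.7%. These shares restate the called subunits and carry no test of their own.

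**Figure D4:**
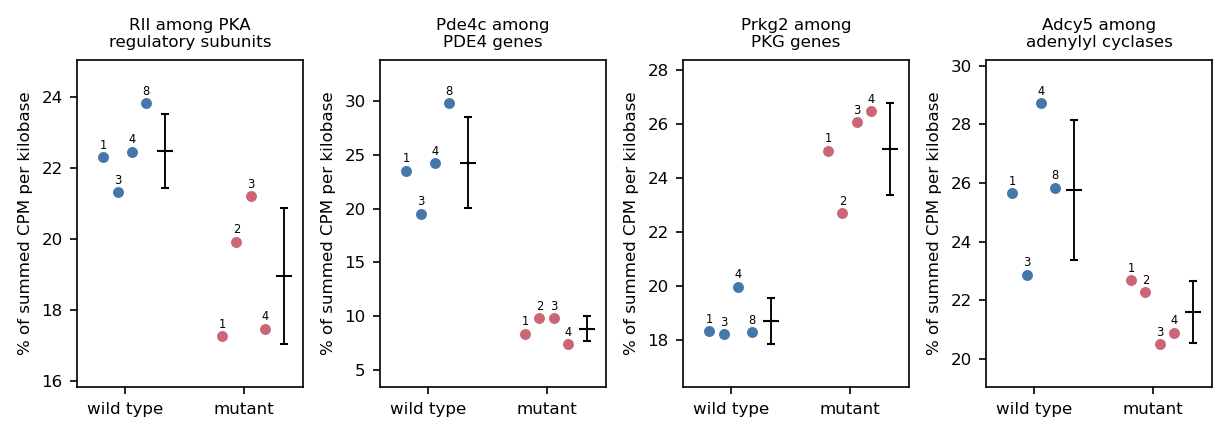
Share of a family's summed CPM per kilobase of exon (%, y axis) held by type II regulatory subunits, Pde4c, Prkg2 and Adcy5 in each wild-type (blue) and mutant (red) sample, numbered as in the labels, with mean and SD in black and a separate axis range per panel. The Pde4c share is 24.3% in wild-type ganglia and 8.83% in mutant ganglia, and the Prkg2 share is 18.7% and 25.1%.

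Prkg2, the membrane-bound cGMP-dependent kinase, rose (ENSMUSG00000029334). It measured 3.77, 3.68, 3.78 and 3.72 log2 CPM in wild-type ganglia and 4.14, 4.14, 4.30 and 4.25 in mutant ganglia, from 84 to 102 reads and from 107 to 131. Each group was tight, and they were well separated. The difference was 0.47 (SE 0.0995, limma adjusted p = 0.0144), from 13.1 ± 0.44 to 18.2 ± 1.05 CPM (SD, n = 4). Prkg1, the soluble cGMP-dependent kinase, was at 10.6 CPM per kilobase against 2.43 for Prkg2 in wild-type ganglia. Its difference was -0.06 with an interval from -0.19 to 0.07. The Prkg2 share of both kinase genes was therefore 18.7% ± 0.85 in wild-type ganglia and 25.1% ± 1.70 in mutant ganglia.

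The voom method of limma, run on the reads recovered from the table, called the same 7 members. Only Pde4c and Prkg2 were called when limma was fitted without the mean-variance trend. The adjusted p was then 0.0775 for Pde10a, 0.121 for Pde11a, 0.108 for Prkar2a and 0.11 for Prkar2b. No called member shares exon bases with another annotated gene. Another 11 members, among them Npr2, Adcy3, Pde5a and Pde8b, share exon bases with a gene on the opposite strand, whose reads they could include, since the use of strand in counting is not given in the sources used here. Pde2a, Prkar1b and Gucy1a3 share exon bases with a gene on the same strand, from 1 base in Gucy1a3 and 341 in Prkar1b to 3955 in Pde2a. The partner of Pde2a is a second gene entry of the same name, identical over 3957 of the 4139 bases of the Pde2a transcript, so the Pde2a count is uncertain.

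Genes that act just before and after these enzymes were taken from 9 lists, with 66 of 85 genes tested, 3 called higher and 4 lower. Of all tested genes, 2.81% were called higher and 2.64% lower. The same shares stand beside the counts per list and per cell marker set below. Among the 7 G protein alpha subunits acting on adenylyl cyclase, 2 fell and 0 rose, with a list median of -0.04. Gnal, the stimulatory subunit first known from olfactory neurons, measured 9.29, 9.36, 9.37 and 9.42 log2 CPM in wild-type ganglia and 8.88, 8.94, 8.995 and 8.80 in mutant ganglia. The groups were well apart, with a difference of -0.46 (SE 0.055, limma adjusted p = 0.000461), and the call held under all 21 alternatives. Gnao1, the abundant neuronal Go subunit, measured 10.04, 9.96, 10.005 and 9.95 in wild-type ganglia and 9.51, 9.56, 9.58 and 9.13 in mutant ganglia. Mutant 4 lay lowest and the difference was -0.54 (SE 0.083, limma adjusted p = 0.0021), with an adjusted p of 0.0648 without the mean-variance trend. Gnas, the general stimulatory subunit, had -0.01.

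Among other receivers of cAMP and cGMP, 2 of 11 tested genes rose and 0 fell, with a median of 0.16. Rapgef3, the exchange factor Epac1, measured 3.91, 3.24, 3.86 and 3.23 in wild-type ganglia and 4.40, 4.31, 4.40 and 4.25 in mutant ganglia. The wild types split into a higher and a lower pair, and all mutants lay above both. The difference was 0.78 (SE 0.156, limma adjusted p = 0.0107), which was 0.0831 without the mean-variance trend and 0.0575 in the 6 samples whose replicate numbers both groups share. Rapgef4, the neuronal exchange factor Epac2, measured 7.33, 7.41, 7.17 and 7.31 in wild-type ganglia and 7.56, 7.49, 7.55 and 7.53 in mutant ganglia. The groups did not overlap, the difference was 0.23 (SE 0.059, limma adjusted p = 0.0349), and the call was lost in 12 of 21 alternatives, among them median centring at 0.318. Of 19 tested anchoring proteins, 1 rose and 0 fell, with a median of 0.00. Akap13, an anchoring protein that also activates RhoA, measured 7.37, 7.37, 7.37 and 7.21 in wild-type ganglia and 7.81, 7.70, 7.44 and 7.58 in mutant ganglia. Its difference was 0.30 (SE 0.074, limma adjusted p = 0.0299), and the call was lost in 9 of 21 alternatives, with 0.164 under median centring.

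**Figure D5:**
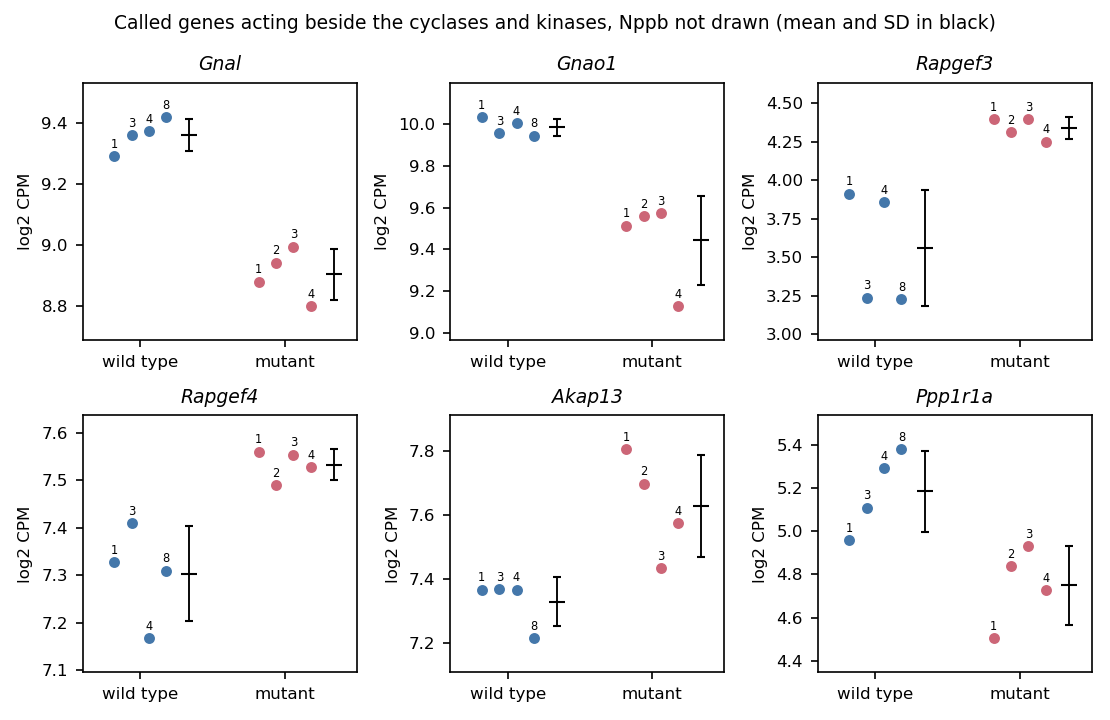
Log2 CPM of 6 called genes from the lists around the cyclases and kinases in each wild-type (blue) and mutant (red) sample, numbered as in the labels, with mean and SD in black and a separate axis range per panel. The mutants lie below the wild types for Gnal, Gnao1 and Ppp1r1a and above them for Rapgef3, Rapgef4 and Akap13.

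Of 11 tested kinase substrates, 1 fell, with a list median of 0.02. Ppp1r1a, a phosphatase inhibitor switched on by protein kinase A, measured 4.96, 5.11, 5.29 and 5.38 in wild-type ganglia and 4.50, 4.84, 4.93 and 4.73 in mutant ganglia. Mutant 3 came just under wild type 1, and the difference was -0.43 (SE 0.111, limma adjusted p = 0.0343), lost in 9 of 21 alternatives. Of 5 tested genes on the list of nitric oxide synthases and natriuretic peptide ligands, 1 fell. The 5 were Nos1, Nos3, Nppb and the proteases Corin and Furin. Nppb, which encodes B-type natriuretic peptide and marks itch neurons, is also on the NP3 marker list below. It had 13, 22, 27 and 40 reads in wild-type ganglia and 0, 1, 0 and 0 in mutant ganglia (limma adjusted p = 5.21e-05). The 3 protein kinase A inhibitors, the 8 genes of the CREB family and its coactivators and the 2 efflux transporters gave 0 calls with limma, and 1, 1 and 0 of them in that order had an unadjusted p under 0.05, a level that 3206 of all 15030 genes passed. None of the 4 listed inhibitory subunits of the photoreceptor phosphodiesterase and activators of its cyclase had enough reads to be tested.

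Neuron subtype and glial markers moved with the same contrast. Markers of the non-peptidergic nociceptor class NP1 fell in 6 of 6 genes, and summed to 1402, 1383, 1354 and 1280 CPM in wild-type ganglia and 766, 935, 1025 and 708 in mutant ganglia. Mutants 1 and 4 were the lowest of these, as they were for 4 of the 5 members that fell, while for Pde11a mutants 2 and 4 were lowest. Markers of the itch class NP3 fell in 6 of 7 genes, from 123 to 169 CPM in wild-type ganglia. In mutants 1 to 4 they summed to 32.3, 39.5, 37.4 and 39.8, so mutant 4 was the highest. Those of NP2 fell in 2 of 3, and summed to 26.7, 25.2, 30.9 and 18.9 in mutants 1 to 4, with mutants 2 and 4 lowest. The order of the mutants thus differed between these marker lists. Peptidergic markers, at 1327 to 1409 CPM in wild-type ganglia and 1256 to 1422 in mutant ganglia, gave 0 calls with limma, as did neurofilament neurons and C-fibre mechanoreceptors; unadjusted p-values were under 0.05 for 1, 2 and 1 of their genes. In the other direction, 2 of 8 satellite glia genes rose (2712 to 3176 CPM against 3053 to 3973), 2 of 8 Schwann cell genes (2441 to 3202 against 2890 to 3488), 1 of 8 tested macrophage genes and 1 of 6 fibroblast genes. Endothelial, pericyte, skeletal muscle, adipocyte and red blood cell markers gave 0 calls with limma, and 2, 3, 5, 1 and 0 of their genes in that order had an unadjusted p under 0.05. The part of these cell markers in the 5 members that fell and the 2 that rose was not tested.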

How the data were processed

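Total RNA of 8 ganglion samples was isolated with a Qiagen column kit and read as single-end 150-base Illumina reads, per the labels' protocols. The values, in log2 CPM moderated by a prior count, come from 1 table deposited by the authors, per the file's name and values. The submitters' processing notes name Salmon 0.11.1, DESeq2 and the mm9 build, with no role given. RefSeq windows and GENCODE M21 exon lengths are of GRCm38, matched by gene identifier. The table's 41422 lines gave 40800 identifiers, 402 of them repeated with the same values. Its floor of -1.79 log2 CPM is 0 reads, and subtracting it gave whole reads within 0.01 for 100% of values, with a prior averaging 2 reads. The prior makes log2 differences understate changes of low genes.

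Genes with log2 CPM above 0 in at least 4 of 8 samples were compared by limma (3.58.1, under R 4.3.3; lmFit and eBayes with a trend), two-sided, with no covariate, and adjusted by the Benjamini-Hochberg method. The code was tested on simulated data. Members and gene lists were chosen with earlier results of these data known. Named with every sample's value were members with an adjusted or unadjusted p under 0.05 and the called genes of the pathway lists. Prkacb and, in reads, the untested Gucy2g were also given in every sample. The highest member of each family was named with group values. Levels per kilobase divide CPM by merged exon length. P-values rest on the spread between these mice, but each gene's variance was drawn toward a trend fitted over all tested genes. They therefore do not measure the spread of that gene alone. The column names carry running numbers of unstated meaning, so a batch in them was not tested. Replicate numbers 1, 3 and 4 occur in both groups, with correlations of deviations of 0.08, 0.04 and 0.06, so they were not treated as pairs. Alternatives changed the filter, pseudocount, scaling, variance model, sample weights, covariate, test and threshold, left out each sample, and blocked on replicate number.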

Additional observations from a re-analysis of the deposited data

Results flagged for a closer look

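The genes looked at were the members with an unadjusted p under 0.05 and the called genes of the pathway lists. They gave 42 groups of 4 samples, and in 6 of them 1 sample stood far from the other 3. Chance alone gives this in about 1 in 20 groups. Pde5a was at 3.75 log2 CPM in wild type 4, against 2.63 to 2.80 in the other wild types. Pde6d was at 5.10 in wild type 3, against 5.20 to 5.21. Pde11a was at 6.49 in wild type 4, against 6.25 to 6.28. Outside the members, Gnao1 was at 9.13 in mutant 4, against 9.51 to 9.58 in the other mutants. Akap13 was at 7.21 in wild type 8, against 7.37 in the other 3. Nppb was at -1.15 in mutant 2, which is 1 read, against the floor of -1.79 in the other mutants. The member Prkacb, also given with every sample's value, was not among the groups looked at. It was at 8.60 in wild type 8, against 8.52 to 8.53 in the other wild types. In mutant 1 it was at 8.38, against 8.49 in the other mutants.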

How the results depend on the processing

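None of the 14 members with an unadjusted p under 0.05 changed sign under the 21 alternatives. Among the 44 tested members, 17 changed sign under at least 1, each with a difference of at most 0.11 in size, and median centring turned 8 of them, among them Pde2a, Pde4d, Prkaca and Adcy9, from above to below 0. The 2 members called higher became 1 under median centring, 1 with no variance trend, and 1 in the 6 samples with shared replicate numbers, both with the replicate block and without it. Leaving out each sample gave 2 to 4, the 4 without wild type 4, when Gucy1a3 and Pde5a were called. The 5 called lower became 1 with no variance trend, 7 under median centring, 6 after quantile normalization and 4 to 6 when a sample was left out. Over all genes the 820 calls became 142 with no variance trend, 1488 at an adjusted p under 0.1, 447 in the 6 samples with no block (671 with the replicate block), and 404 to 935 when a sample was left out. Prkg2 had an adjusted p of 0.0571 with the replicate block and 0.0544 in the same 6 samples without it, and Pde11a had 0.0880 and 0.0896. Median centring changed the median difference over the table from 0.07 to -0.03, and the share of calls that were higher went from 51.6% to 22.4% (204 higher and 706 lower), and quantile normalization brought that share to 39.1%. The cause of these shifts was not tested. With 27 to 35 mutant reads Pde4c is the called member with the fewest, and reads are not independent molecules.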
